A study of Mus musculus with 2 samples.

Results

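The mitochondrial ribosomal proteins were taken as the non-control probes of the microarray whose gene name is *Mrpl* or *Mrps* followed by a number and an optional letter. This gave 119 probes for 77 genes, of 37074 gene names on the array, with 48 *Mrpl* genes named for the large subunit and 29 *Mrps* genes named for the small subunit. All 77 names are symbols of the reference gene table. MCMs are purchased mouse cardiomyocytes that were passaged in culture, of which 1 culture received siRNA-NC, the negative control siRNA, and the other siRNA-*Ppp2r5d*. Both were changed to medium without glucose 48 h after transfection, and their total RNA was taken at 64 h. The protein of *Ppp2r5d* is a regulatory subunit that directs a serine/threonine phosphatase, PP2A, to its substrates. Each RNA was hybridized to 1 one-colour array, so no value below has a replicate check, no p-value was computed, and the siRNA cannot be told apart from any other difference between the cultures or the arrays.

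Mitochondrial ribosomes translate the messenger RNAs of the mitochondrial genome, whose products are core subunits of the respiratory chain and the ATP synthase. Their proteins are encoded in the nucleus, made in the cytosol and imported, and are assembled on the ribosomal RNAs of the mitochondrion, the small subunit decoding the messenger and the large subunit forming the peptide bond. Some of the proteins have a counterpart in the bacterial ribosome and others are specific to mitochondria. Heart muscle is rich in mitochondria, and inherited defects of several of these proteins are a cause of cardiomyopathy.

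The probes of the members at the ends of the range are shown by their first 30 of 60 bases, because the values that follow rest on them. For *Mrpl13* and *Mrps15* both probes are shown, since the probes of 1 gene gave different values.
*Mrpl42*, lowest of the large subunit (mm9, chr10:94943468-94943527, minus strand): gtgtcttatttgccagctgagagaatgtac
*Mrpl50*, highest of the large subunit (mm9, chr4:49527089-49527148, minus strand): aatgttcctgttcaagacaaatctaaattt
*Mrpl13*, brighter probe (mm9, chr15:55365795-55365854, minus strand): gaacattacagcaagagactgaatgtttcc
*Mrpl13*, dimmer probe (mm9, chr15:55381049-55381108, minus strand): gtgggttcttttgtattagtccatggttca
*Mrps15*, brighter probe (mm9, chr4:125732712-125732771, plus strand): tgccagagaacccttcaaatgccgtaccag
*Mrps15*, dimmer probe (mm9, chr4:125728892-125728951, plus strand): ggacagggctgaagttctgtgttctacttt
*Mrps14*, highest of the small subunit, brighter probe (mm9, chr1:162129889-162129948, plus strand): attgaattgtctttcaactttaaagcatag
*Mrps6*, second highest of the small subunit (mm9, chr16:92112223-92112282, plus strand): ctgctaggttgttgtctaggatactttagc
The positions are those given by the scanner output, and which exon or untranslated region they belong to was not analysed here. The members lay on 17 chromosomes.

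On the arrays, the targeted gene *Ppp2r5d* had an intensity of 4701 with siRNA-NC and 676 with siRNA-*Ppp2r5d*, which after scaling was a log2 fold change of -2.61, or 6.09-fold lower. Of 59305 non-control spots, 35544 were well above background with siRNA-NC and 35174 with siRNA-*Ppp2r5d*, and 0 were saturated. The array of the knockdown was dimmer, with a 75th percentile of 519 against 593, and each array was scaled to that percentile. All log2 fold changes here are siRNA-*Ppp2r5d* over siRNA-NC after this scaling, as the mean over the probes of a gene that both arrays measured well above background. The error that these data can give is technical. The log2 fold change of probes spotted at least 9 times had a median SD of 0.037 over spots (n = 242 probes), whereas each member probe was spotted once. Of the 242, 230 had an intensity of at least 1000 on both arrays. The 5 with an intensity under 100 on an array had a median SD of 0.16, so 0.037 does not describe dim probes.

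After knockdown of *Ppp2r5d*, the mitochondrial ribosomal protein genes were close to their level in the control culture. Signal well above background on both arrays was found for 76 of the 77 genes, and none of these was changed 1.5-fold or 2-fold in either direction. Among all 20350 genes measured, 8% were changed at least 1.5-fold and 1.96% at least 2-fold. Most members were bright, and among the 9130 genes with an intensity of at least 1000 on both arrays 2.54% were changed at least 1.5-fold, beside 0 of the 74 members in that range, so the count of 0 lies near the background of bright genes. The 76 log2 fold changes ran from -0.46 for *Mrpl42* to 0.48 for *Mrpl50*, with a median of 0.079, and 54 were above 0. Over all genes measured the median was 0.026, with 54.1% above 0, and over the genes of at least 1000 it was 0.081, with 67.2% above 0. The median of the members in that brighter range was 0.074, with 54 of 74 above 0. Within 0.2 of 0 on the log2 scale lay 59 members, or 77.6%, compared with 56.8% of all genes and 67.8% of the brighter genes. No test was run on these shares. The remaining member, *Mrpl35*, had 1 probe with an intensity of 3.06 and 2.69, not well above background on either array.

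**Figure D1:**
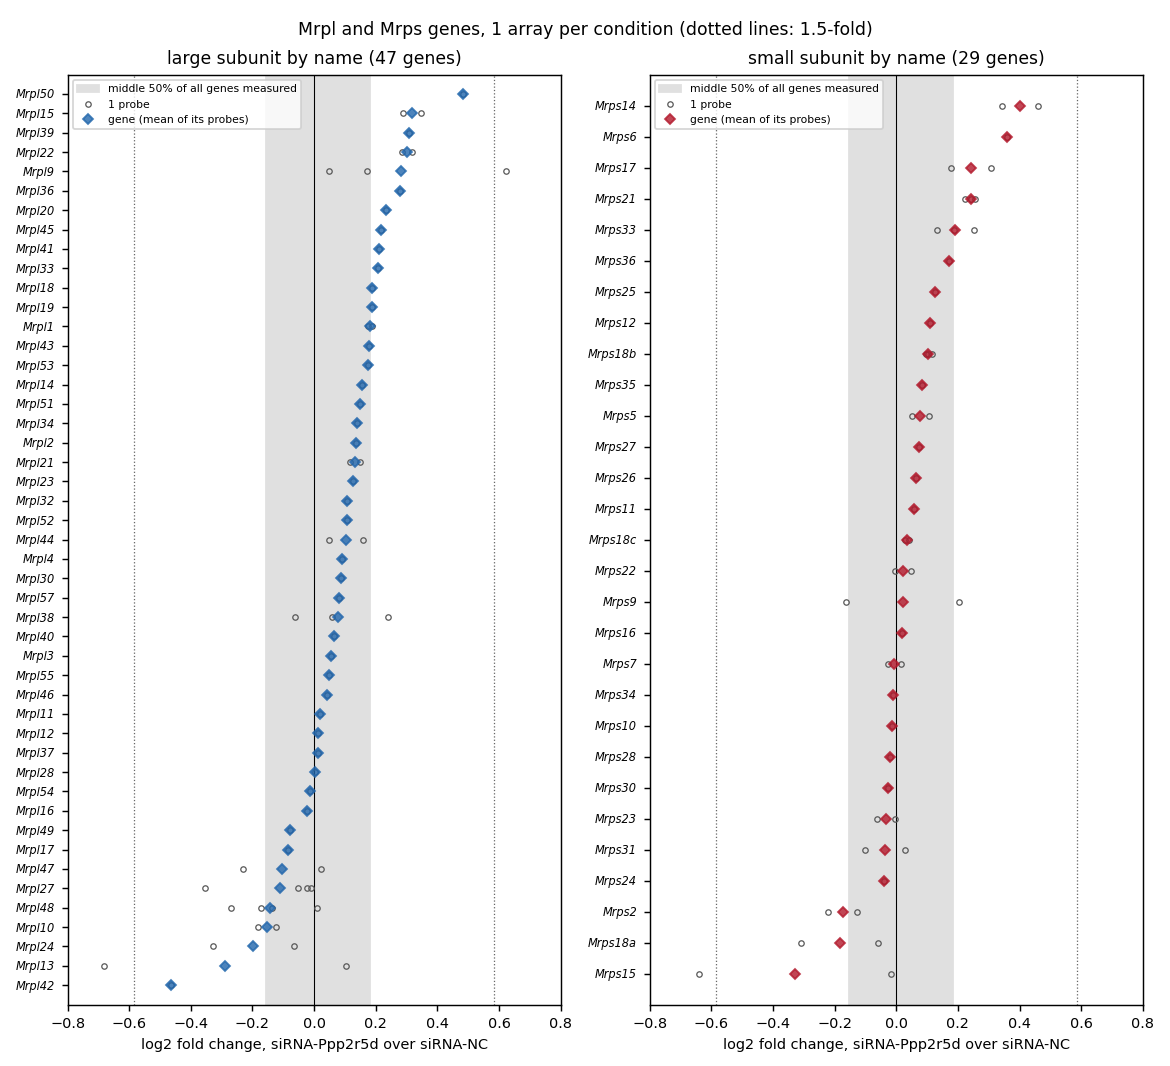
Log2 fold change (x axis) of each measured *Mrpl* gene (left, 47 genes) and *Mrps* gene (right, 29 genes), with open circles for single probes, diamonds for the gene and a grey band for the middle 50% of all genes measured. All diamonds lie between the dotted lines at 1.5-fold, and 3 probes, of *Mrpl9*, *Mrpl13* and *Mrps15*, lie outside them.

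The large and the small subunit were then compared. For the 47 measured *Mrpl* genes the median was 0.10, from -0.46 to 0.48, with 36 above 0. The 29 *Mrps* genes had a median of 0.034, from -0.33 for *Mrps15* to 0.40 for *Mrps14*, with 18 above 0. The medians differed by 0.068, and the ranges of the subunits overlapped over most of their length. This difference depended on the scaling, and it was 0.0047 after quantile normalization and 0.0095 after cyclic loess. By structure, the products of *Mrps30* and *Mrps18a* belong to the large subunit despite their names. With these genes moved, the medians were 0.090 over 49 genes and 0.058 over 27, a difference of 0.033. *Mrps36*, with 0.17, was kept among the 27 by its name, although its product is a component of another complex. With 1 array per condition, a difference between the subunits cannot be tested.

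The subunits were also split by origin. Large subunit proteins with a bacterial counterpart had a median of 0.12 over 28 genes, and those specific to mitochondria had 0.081 over 20, a list that includes *Ict1*, the name on the array for *Mrpl58*. In the small subunit the medians were 0.027 over 16 genes with a bacterial counterpart and 0.069 over 10 specific to mitochondria. The order of the origins was thus opposite in the subunits, and no test was run on these differences. After cyclic loess these 4 medians lay between -0.018 and 0.018. *Mrps18a*, *Mrps30* and *Mrps36* were in none of the 4 lists, and of the ribosome proteins with other names only *Ict1* was included.

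The 5 highest large subunit genes were *Mrpl50*, *Mrpl15*, *Mrpl39*, *Mrpl22* and *Mrpl9*. *Mrpl50*, which is specific to mitochondria, had an intensity of 963 with siRNA-NC and 1178 with siRNA-*Ppp2r5d*. Its log2 fold change of 0.48, or 1.40-fold higher, came from 1 probe. *Mrpl39*, also specific to mitochondria, went from 3616 to 3921 on 1 probe, a log2 fold change of 0.31. *Mrpl15*, a counterpart of a bacterial protein, had 2 probes, with 4821 and 5153 on the brighter and 1188 and 1322 on the dimmer. They gave log2 fold changes of 0.29 and 0.35, so both probes lay on the same side of 0. The probes of *Mrpl22*, whose product lines the exit tunnel of the nascent peptide, went from 11150 to 12163 and from 2822 to 3012. Their log2 fold changes were 0.32 and 0.29. In these 4 genes every probe was brighter on the siRNA-*Ppp2r5d* array before any scaling, whereas the brightest probe of 63 of the 76 members was dimmer there.

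*Mrpl9*, a further counterpart of a bacterial protein, was less uniform. Its brightest probe went from 4307 to 3901, a log2 fold change of 0.050, and a second from 685 to 676, with 0.17. The third was dim, with 20.6 and 27.8, and gave 0.62. It was the 1 member probe at least 1.5-fold higher, compared with 3.31% of all 31701 probes measured. Without it, at an intensity of at least 100 on both arrays, the value of *Mrpl9* was 0.11 in place of 0.28.

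At the other end of the large subunit were *Mrpl42*, *Mrpl13*, *Mrpl24*, *Mrpl10* and *Mrpl48*. *Mrpl42*, which is specific to mitochondria, had an intensity of 15275 with siRNA-NC and 9697 with siRNA-*Ppp2r5d*. This was a log2 fold change of -0.46, or 1.38-fold lower, and it came from 1 probe. The next lowest value of a member probe with an intensity of at least 1000 was -0.17, of *Mrpl48*. *Mrpl13*, a counterpart of a bacterial protein, had a bright probe that went from 18612 to 17513, a log2 fold change of 0.10, and a dimmer probe that went from 707 to 386, with -0.68. The probes point in opposite directions with a range of 0.79, the widest among the members, and the gene value of -0.29 is a mean of values that do not agree in sign. *Mrpl24* went from 10811 to 9039 on its bright probe, with -0.066, and from 64.2 to 44.8 on its dim probe, with -0.33. In this gene, too, the low value came from the dimmer of the probes.

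*Mrpl10* and *Mrpl48* were lower on several probes. *Mrpl10*, part of the stalk on which translation factors dock, went from 2226 to 1789 and from 597 to 460. The log2 fold changes were -0.12 and -0.18. The 3 brighter probes of *Mrpl48*, a protein specific to mitochondria, gave -0.17, -0.14 and -0.27, and a dim probe, with 35.0 and 30.9, gave 0.0094.

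In the small subunit, *Mrps14*, *Mrps6*, *Mrps17*, *Mrps21* and *Mrps33* were the highest. *Mrps14*, a counterpart of a bacterial protein of the small subunit head, went from 5051 to 5611 on its bright probe and from 26.0 to 31.3 on its dim probe. Its log2 fold changes were 0.34 and 0.46. *Mrps6*, also a counterpart of a bacterial protein, went from 19703 to 22127 on 1 probe, with 0.36. All probes of *Mrps14* and *Mrps6* were brighter with siRNA-*Ppp2r5d* before scaling. The 2 probes of *Mrps17* gave 0.31 and 0.18, the 3 probes of *Mrps21* lay between 0.22 and 0.26, and the 3 probes of *Mrps33* between 0.13 and 0.25. *Mrps17* and *Mrps21* have bacterial counterparts, and *Mrps33* is specific to mitochondria.

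The lowest small subunit genes were *Mrps15*, *Mrps18a*, *Mrps2*, *Mrps24* and *Mrps31*. *Mrps15*, a counterpart of a bacterial protein, went from 13740 to 11877 on its bright probe, a log2 fold change of -0.018, and from 199 to 112 on its dim probe, with -0.64. Its place at the bottom of the subunit therefore came from the dim probe. The dim probes of *Mrpl13* and *Mrps15* were the 2 member probes at least 1.5-fold lower, compared with 4.83% of all probes measured. *Mrps18a* went from 5737 to 4822, with -0.058, and from 148 to 105, with -0.31. *Mrps2*, a counterpart of a bacterial protein, went from 4417 to 3537, with -0.13, and from 352 to 265, with -0.22. *Mrps24* had -0.040 on 1 probe, and the 2 probes of *Mrps31* gave 0.028 and -0.10, so both genes lay near 0.

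Probes of 1 gene are the nearest to a repeat measurement in these data, but they are not full repeats. Some overlap in position. Others, such as the dimmest probes of *Mrpl9*, *Mrpl13*, *Mrpl24*, *Mrps15* and *Mrps18a*, are annotated to other transcript records than the brightest probe of the gene. Whether such probes measure the same RNA was not analysed here. Of the 76 genes, 48 were measured by 1 probe and 28 by several. In the 28 genes the range of log2 fold changes over probes had a median of 0.11, and it was under 0.2 in 18 genes. In 8 genes the probes differed in sign, with a range over 0.5 in *Mrpl13* alone. Of the 113 member probes measured, 9 had an intensity under 200 with siRNA-NC. Their median log2 fold change was -0.23, and 6 were below 0, whereas the median of all 12370 probes of that brightness was -0.020, with 52.3% below 0. The 104 brighter member probes had a median of 0.078, and 74 were above 0. The 6 other member probes, of *Mrpl23*, *Mrpl35*, *Mrpl47*, *Mrpl52*, *Mrps18b* and *Mrps5*, were not well above background on either array.

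**Figure D2:**
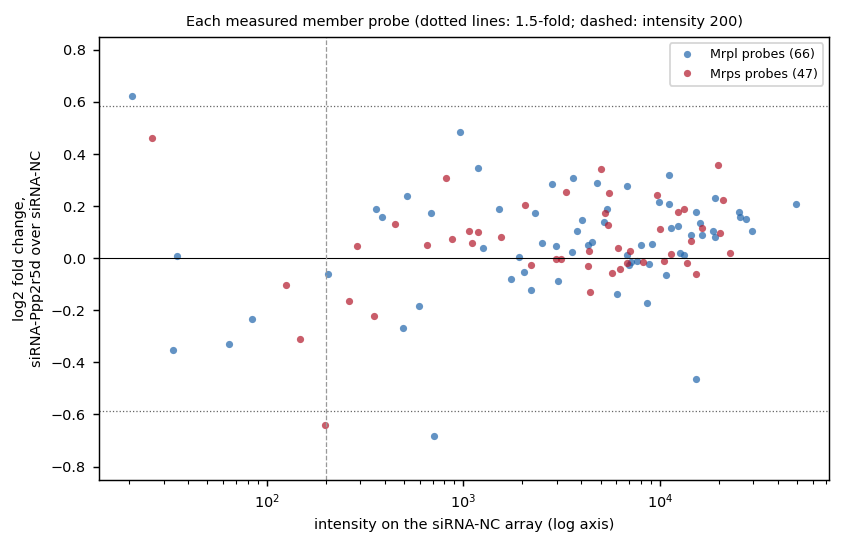
Log2 fold change (y axis) of each of the 113 member probes measured against its intensity on the siRNA-NC array (x axis, log scale), with 66 *Mrpl* and 47 *Mrps* probes. The values at least 1.5-fold away from 0, beyond the dotted lines, belong to probes with intensities of 20.6, 199 and 707, and the bright probe far below the others is that of *Mrpl42* at 15275.

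The members with named roles lay inside this range. *Mrpl12*, a stalk protein whose product also binds the mitochondrial RNA polymerase, went from 13265 to 11708, a log2 fold change of 0.012, while its stalk partner *Mrpl10* had -0.15. *Mrps12*, at the decoding centre, went from 10026 to 9475, with 0.11. *Mrpl44*, which resembles a ribonuclease III, had 0.047 and 0.16 on 2 probes, and *Mrpl45*, which faces the inner membrane near the exit tunnel, went from 9923 to 10090, with 0.22. The 3 paralogs of the *Mrps18* family had values of -0.18 for *Mrps18a*, 0.10 for *Mrps18b* and 0.034 for *Mrps18c*. The 3 measured probes of *Mrps18b* lay between 0.095 and 0.12 and the 2 of *Mrps18c* at 0.040 and 0.027. The 2 probes of *Mrps18c* overlap in position, as do the 2 brighter ones of *Mrps18b*, so their closeness says little about the genes. Those of *Mrps18a*, at separate positions, gave -0.058 and -0.31. *Mrps30*, a large subunit protein by structure, went from 4305 to 3695, with -0.028. *Mrps36*, whose product is a component of the oxoglutarate dehydrogenase complex despite its name, went from 5297 to 5225, with 0.17.

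How the members moved relative to 0 depended on how the arrays were scaled. Quantile normalization placed their median at 0.014 with 41 of 76 above 0, cyclic loess at 0.012 with 40, and the log2 table of the authors at 0.020 with 41. Scaling to the spike-in probes, which lowered all genes to a median of -0.19, placed the members at -0.13 with 12 above 0, and *Mrpl42* with -0.67 was then the 1 member past 1.5-fold. Over 10 ways of processing, the main one included and those without a filter on dim probes or with a limit of 1000 left out, 12 genes were above 0 in every one and 13 below 0 in every one, and the other 51 changed sign. In the large subunit 8 were always above and 7 always below, and in the small subunit 4 and 6. *Mrpl50* kept a value of at least 0.27, *Mrps14* of at least 0.19 and *Mrps6* of at least 0.15, whereas *Mrpl42* stayed at -0.44 or lower.

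**Figure D3:**
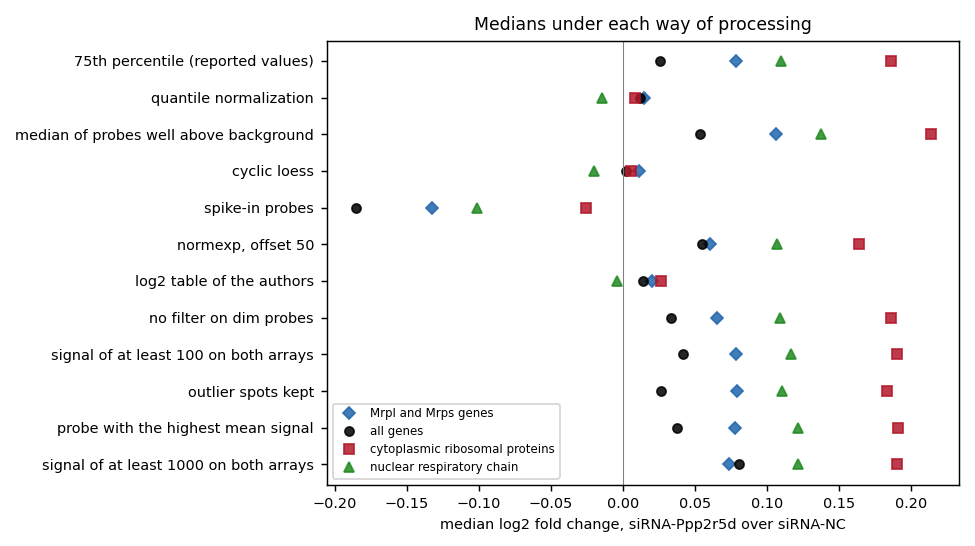
Median log2 fold change (x axis) of the *Mrpl* and *Mrps* genes, of all genes, of cytoplasmic ribosomal proteins and of nuclear respiratory chain subunits under each way of processing (y axis). After quantile normalization and cyclic loess the medians lie between -0.020 and 0.014, and with spike-in scaling all 4 are below 0.

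The other proteins of the mitochondrial ribosome on the array, which do not carry an *Mrpl* or *Mrps* name, lay in the same range. Of 6 genes, 2 were above 0 and the median was -0.015. None passed 1.5-fold, beside 2.54% of all genes of at least 1000 on both arrays. *Dap3*, a GTP-binding protein of the small subunit, went from 19934 to 16168, a log2 fold change of -0.11. *Gadd45gip1*, of the large subunit, went from 10485 to 10536, with 0.20. *Ict1*, a peptidyl-tRNA hydrolase built into the large subunit, had -0.0031.

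None of the genes that build the ribosome or work with it passed 1.5-fold either. The share over all genes measured was 8%, and it was 2.54% over the genes of at least 1000 on both arrays. That intensity was reached by 17 of the 27 assembly factors and 7 of the 20 genes that charge mitochondrial tRNAs. No test was run on this count. The 27 assembly factors had a median of -0.013 with 10 above 0, from -0.52 for *Mrm1*, a methyltransferase of the large ribosomal RNA, to 0.30 for *Gtpbp10*, a GTPase of large subunit assembly. *Mrm1* went from 2406 to 1469 on 1 probe. The value of *Gtpbp10* was a mean of 3 probes, the brightest of which went from 424 to 381 before scaling. The 15 translation factors had a median of 0.073 with 12 above 0, from -0.16 for the initiation factor *Mtif3* to 0.30 for *Taco1*, a translational activator of cytochrome c oxidase subunit I. The 20 genes that charge mitochondrial tRNAs had a median of -0.12, and 16 were below 0. They ran from -0.41 for the seryl-tRNA synthetase *Sars2* to 0.44 for the valyl-tRNA synthetase *Vars2*. The value of *Sars2* was a mean of 2 probes, the brighter of which went from 366 to 276. *Vars2* went from 352 to 419 on 1 probe. Their median was below 0 under each way of processing, between -0.33 with spike-in scaling and -0.057 after normexp correction.

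The genes of mitochondrial DNA maintenance and transcription, 15 in all, had a median of 0.022 with 8 above 0, from -0.33 for *Polg2*, the accessory subunit of the mitochondrial DNA polymerase, to 0.33 for *1110008L16Rik*, named *Prorp* in the reference and encoding the catalytic subunit of mitochondrial RNase P. Of 10 regulators of nuclear genes for mitochondrial proteins, 1 was above 0, *Yy1* with 0.075. The median was -0.049, and the lowest was the coactivator *Ppargc1b* with -0.24. The count above 0 rested on small values, and it was 3 after quantile normalization and 5 after normexp correction, where the median was -0.0048. With spike-in scaling the medians of all these lists lay below 0, at -0.23 for the other ribosome proteins, -0.22 for the assembly factors, -0.14 for the translation factors, -0.19 for mitochondrial DNA expression and -0.26 for the regulators.

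Cytoplasmic ribosomal proteins and the nuclear subunits of the respiratory chain were set beside the members. The 79 cytoplasmic ribosomal proteins had a median of 0.19 with 77 above 0, from -0.15 for *Rps13* to 0.29 for *Rps27a*. Whether their probes also bind the many pseudogenes of this family was not analysed here. The 75 respiratory chain genes had a median of 0.11 with 66 above 0, from -0.62 for *Ndufs3* to 0.53 for *Ndufv3*, both means of 2 probes. *Ndufs3* was the 1 gene of these lists past 1.5-fold, and its value came from a dim probe that went from 35.6 to 13.7, with -1.18, while its bright probe went from 20951 to 17683, with -0.052. The dim probe of *Ndufv3* went from 34.5 to 53.9, with 0.84, and its bright probe from 24780 to 25413, with 0.23. Thus the median of the members lay below those of both lists under the main scaling, but after cyclic loess the medians were 0.012 for the members, 0.0059 for the cytoplasmic ribosomal proteins and -0.020 for the respiratory chain.

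**Figure D4:**
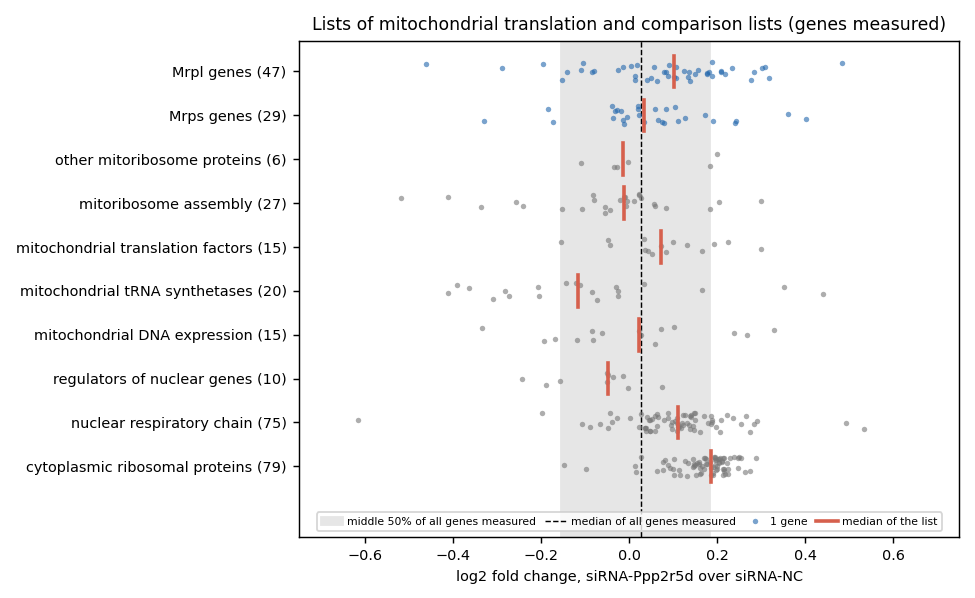
Log2 fold change (x axis) of each measured gene, as 1 point, in the lists named on the y axis with the number measured; red bars are list medians, the grey band is the middle 50% of all genes and the dashed line their median of 0.026. The *Mrpl* and *Mrps* genes spread from -0.46 to 0.48, and the tRNA synthetases have the lowest median, -0.12.

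Promoters of the members were read from a table of RefSeq promoters (GRCm38.p6, 250 bases before to 50 after each start), in which 68 of the 77 genes had 74 windows. They were searched on both strands for short cores of factors known to act on nuclear genes for mitochondrial proteins, and the shares were set beside those of all 32851 windows. The NRF1 core GCATGCGC was in 10.8% of the member windows and 2.71% of all. The ETS core CCGGAAGT, bound by GABPA, was in 16.2% and 3.89%, and the YY1 core AAGATGGC in 16.2% and 2.75%. The E-box CACGTG, by contrast, was in 9.46% and 7.15%. The NRF1 core can overlap its own reverse complement, and otherwise the cores were counted separately. At least 1 of the first 3 cores was in 39.2% of the member windows and 8.83% of all. The median was 0.062 over the 28 measured genes with such a core and 0.088 over the 39 without. The single cores went different ways, with 0.16 over 8 genes that hold the NRF1 core and 0.065 over 59 without, 0.069 over 12 with the ETS core and 0.082 over 55 without, and 0.012 over 11 with the YY1 core and 0.095 over 56 without. For the E-box the medians were 0.14 over 5 genes and 0.076 over 62. No test was run on these medians. A match is a description of letters, and binding was not measured.

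The 250 bases before the start are shown for the lowest member, for the highest small subunit member, and for a member with an NRF1 core and one with an ETS core, in each case where no other annotated gene reaches into them. Capitals mark a core.
*Mrpl42* upstream (GRCm38.p6, chr10:95501950-95502199, minus strand): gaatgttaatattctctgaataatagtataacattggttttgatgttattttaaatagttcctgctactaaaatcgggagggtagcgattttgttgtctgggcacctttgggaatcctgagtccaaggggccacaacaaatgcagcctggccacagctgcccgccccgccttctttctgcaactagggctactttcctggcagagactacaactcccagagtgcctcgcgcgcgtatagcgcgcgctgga
*Mrps14* upstream (GRCm38.p6, chr1:160194965-160195214, plus strand): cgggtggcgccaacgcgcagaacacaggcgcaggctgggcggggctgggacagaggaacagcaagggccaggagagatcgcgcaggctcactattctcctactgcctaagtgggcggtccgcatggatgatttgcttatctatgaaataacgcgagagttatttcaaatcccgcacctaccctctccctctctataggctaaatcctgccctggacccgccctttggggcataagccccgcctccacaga
*Mrpl39* upstream (GRCm38.p6, chr16:84735245-84735494, minus strand): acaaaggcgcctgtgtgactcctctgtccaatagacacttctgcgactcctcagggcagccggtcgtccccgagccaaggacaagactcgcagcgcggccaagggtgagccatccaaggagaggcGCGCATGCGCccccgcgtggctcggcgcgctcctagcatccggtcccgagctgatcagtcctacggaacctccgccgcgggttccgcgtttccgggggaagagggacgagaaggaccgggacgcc
*Mrpl3* upstream (GRCm38.p6, chr9:105053018-105053267, plus strand): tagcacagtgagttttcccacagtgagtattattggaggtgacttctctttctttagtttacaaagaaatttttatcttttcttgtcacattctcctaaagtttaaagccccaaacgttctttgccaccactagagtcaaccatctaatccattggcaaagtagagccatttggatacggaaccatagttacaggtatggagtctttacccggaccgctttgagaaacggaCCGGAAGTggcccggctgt
The sequences of *Mrpl42* and *Mrps14*, which differed in direction, hold none of the cores searched. *Mrpl39* with 0.31 holds the NRF1 core on both strands, and *Mrpl3*, a counterpart of a bacterial protein, holds an ETS core and went from 9190 to 8361, with 0.056.

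In 32 of the 68 genes another annotated gene reached into the 250 bases before the start, and 29 of these neighbours were measured. Their log2 fold changes ran from -0.92 to 0.58 with a median of 0.022, a wider range than that of the members themselves. *Mrps6* shares its promoter region with *Slc5a3*, a myo-inositol transporter, and the values were 0.36 and 0.41. *Mrpl50* lies beside *Zfp189*, a zinc finger gene that went from 1001 to 1062, and the values were 0.48 and 0.28. In contrast, *Mrpl57* had 0.082 and its neighbour *Ska3*, a kinetochore gene that went from 514 to 237, had -0.92. *Mrps12* had 0.11 beside -0.41 for *Sars2*, and *Mrpl51* had 0.15 beside -0.58 for *Ncapd2*, a condensin subunit. *Mrpl46* and *Mrps11*, which face each other on chromosome 7, had 0.040 and 0.058. These pairs were chosen after their values were seen. *Mrpl2* lies on chromosome 17 with 4 protein-coding genes between it and *Ppp2r5d*, and it went from 16107 to 15487, with 0.14. The genes in between, *Cul7*, *Rrp36*, *Klhdc3* and *Mea1*, lay between -0.019 and 0.098, so the large fall in signal at *Ppp2r5d* was not seen at these neighbours.

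Markers of cell types were examined because the RNA came from whole cultures, in which fewer cells of a type and less RNA per cell cannot be told apart. Both arrays measured 8 of 14 cardiomyocyte markers well above background, but not *Myh6*, *Actn2*, *Myl2*, *Myl7*, *Ryr2* and *Pln*. The summed intensity of the 8, over the 75th percentile of each array, was 16.3 with siRNA-NC and 17.3 with siRNA-*Ppp2r5d*. Their median log2 fold change was 0.25 with 6 above 0, from -0.19 for *Tnni3* to 0.90 for *Myl3*. *Myl3* with intensities of 40.4 and 66.2, *Nppa* with 16.6 and 22.4 and *Ttn*, with 0.89 as a mean of 5 probes, were more than 1.5-fold higher, beside the 8% of all genes past 1.5-fold in either direction, and *Myl3* and *Nppa* were dim. *Actc1* had -0.098. Of 9 fibroblast markers 7 were measured, with sums of 587 and 630. By gene, however, 4 of the 7 were below 0 and their median was -0.050, from -0.31 for *Col1a2* to 0.62 for *Pdgfra*, whose brightest of 3 probes gave 0.27. This depended on the dimmer probes. With the probe of the highest mean signal for each gene, 6 of the 7 were above 0 and the median was 0.14. All 5 smooth muscle markers were measured, with sums of 241 and 251, and 3 were below 0. They were *Des* with -0.42, *Myh11* with -0.38 and *Acta2* with -0.020, while *Tagln* had 0.85 and *Cnn1*, which went from 288 to 1341, had 2.41. Of 5 endothelial markers 1 was measured, *Pecam1* with -0.23, and of 4 macrophage markers 3, from -0.77 for *Cd68* to 0.13 for *Ptprc*. The sums were 0.0939 and 0.0798 for the endothelial gene and 3.91 and 3.26 for the macrophage genes. Some markers of the labelled cell type were therefore measured, among them *Tnnt2* and *Nkx2-5*, but not *Myh6* and the others listed with it. At an intensity of at least 100 on both arrays, 4 cardiomyocyte markers remained, *Tnnt2*, *Nkx2-5*, *Actc1* and *Ttn*. The sums of the fibroblast and smooth muscle markers, 587 and 241 with siRNA-NC, were far above the 16.3 of the cardiomyocyte markers. Such sums add intensities of different genes and probes, and they do not measure shares of cell types. *Acta2*, at 133436 with siRNA-NC, held most of the smooth muscle sum, beside 8174 for *Tagln*, 866 for *Des* and 27.1 for *Myh11*. The collagen genes *Col1a1*, *Col1a2* and *Col3a1* held most of the fibroblast sum. The part of the marker differences between the arrays in the values of the mitochondrial ribosomal proteins was not tested.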

How the data were processed

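Scanner output of Agilent Feature Extraction 10.7.1.1 was deposited by the authors, giving every spot an intensity with the background of its array removed, together with log2 values of 56605 probes, whose normalization is not given in the sources used here. Intensities are not normalized between arrays. Groups were taken from the sample labels, 1 array each, and 0 columns of unmapped samples were present. The array coordinates are of build mm9.

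Control spots and outlier spots, 126 with siRNA-NC and 95 with siRNA-*Ppp2r5d*, were left out, log2 intensities were taken, spots of 1 probe were averaged, and each array's 75th percentile of non-control probes was then subtracted. Probes of 1 gene well above background on both arrays were averaged. No test was run. Precision is limited by the number of arrays.

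The members and lists were chosen with earlier results of these data known. Named genes were *Ppp2r5d*, the 5 highest and 5 lowest members of each subunit, members past 1.5-fold, without signal or with probes of opposite sign and a range over 0.5, members with listed roles, and the ends of each other list. Genes past 1.5-fold in those lists were also named, and *Mrpl2*, *Mrpl3*, neighbouring genes and the intensity limit of 200 were added after values were seen. Alternatives were quantile normalization, cyclic loess, the median of detected probes, spike-in probes, normexp with an offset of 50, the table of the authors, other filters, outlier spots kept and the probe with the highest mean signal. On simulated data, 200 of 200 genes, changed 3-fold in values copied from the siRNA-NC array, were recovered past 2-fold among 21138 genes, with 0 false calls. The added noise was small and no difference between cultures or arrays was simulated. This checked the calculation, not the reliability of the comparison. The software was Python 3.11.15 (pandas 2.3.3, NumPy 2.4.6, matplotlib 3.10.9) and, for normalization, limma 3.58.1 in R 4.3.3.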

Additional observations from a re-analysis of the deposited data

How the results depend on the processing

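No paired analysis was possible because each condition had 1 array, and no replicate could be left out. Shifts larger than 0.037, the median SD between spots of mostly bright probes, are described as moves. The median of the large subunit, 0.10, was 0.017 after quantile normalization, 0.017 after cyclic loess, 0.024 in the table of the authors and -0.11 with spike-in scaling. That of all members, 0.079, was 0.014, 0.012, 0.020 and -0.13. The difference between the subunits, 0.068, was 0.0047, 0.0095 and 0.011 under the first 3. With spike-in scaling the small subunit had -0.18, the mitochondrial translation lists together had -0.23 in place of -0.022, 12 in place of 54 members were above 0, and 1 member in place of 0 passed 1.5-fold. With an intensity of at least 1000 on both arrays, a filter added after the data were seen, those lists had 0.024. Among single genes, *Mrps18b* turned to -0.11, *Mrps36* to -0.039, *Mrps12* to -0.10, *Mrpl44* to -0.11 and *Mrpl2* to -0.075 with spike-in scaling, which lowers every gene by 1 amount. *Mrpl13* turned to 0.10 with the probe of the highest mean signal and with the filter at 1000, both of which leave its dimmer probe out. Of the other values of single genes, 208 stayed within the spot SD and 113 moved. Some of these also changed sign, from or to a value near 0. With spike-in scaling, for example, *Mrps18c* went from 0.034 to -0.18 and *Mrps33* from 0.19 to -0.021. The cause was not tested. Signal over background limits *Mrpl35* and the dim probes of *Mrpl9*, *Mrpl24*, *Mrps14*, *Mrps15* and *Mrps18a*.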
